A study of Caenorhabditis elegans with 8 samples.

Results

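The 32 genes described here encode subunits of the proteasome of Caenorhabditis elegans, and they were chosen by name from the 19971 protein-coding genes on the 6 nuclear chromosomes. They comprise 7 pas genes (alpha subunits of the core particle), 7 pbs genes (beta subunits of the core), 6 rpt genes (ATPases of the regulatory particle) and 12 rpn genes (its non-ATPase subunits). All 32 names were found in the gene table. A gene was scored as having a peak when the summit of a deposited peak lay in the gene or within 1000 bp of it. For each list of peaks, the count of members with a summit is set beside the share of all protein-coding genes that had one.

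The proteasome degrades proteins that carry ubiquitin chains. Its core is a stack of rings, in which the alpha rings gate the entry and the beta rings carry the proteolytic sites. The regulatory particle binds the ubiquitinated protein, removes the chain, unfolds the protein with its ring of ATPases and feeds it into the core. SKN-1 belongs to the same family of transcription factors as mammalian Nrf1 and Nrf2. In C. elegans its endoplasmic reticulum-associated form, SKN-1A, is known to raise transcription of proteasome subunit genes when the proteasome is impaired, and a reporter for rpt-3 is widely used to follow that response.

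Chromatin immunoprecipitation with sequencing was carried out on whole animals raised at 20°C on OP50 bacteria, all carrying SKN-1 fused to GFP. The fusion was wild type in one genotype (WT) and carried the gain-of-function allele, SKN-1gf(lax188), in the other (GF), so that the binding profiles of both forms could be compared. The labels name 8 samples. A Chromotek GFP antibody was used on 4 of them, 2 of each genotype, and the peaks of each form a list of its own, called WT 1 and WT 2 or GF 1 and GF 2 here. Samples processed without antibody (4) come with no peaks, so they are not analysed here. Age, developmental stage and separate cultures are not stated, and differences between replicate lists may therefore be technical. Whole animals mix tissues, and a peak cannot be assigned to a cell type.

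The lists held 905 to 29541 peaks, with GF 2 the shortest, and the read depth behind them is unknown. Fold enrichment, the value that the authors' peak caller gave each peak over its background, had a median between 1.46 and 1.55 in the 4 lists, so most peaks were shallow. In the WT 2 file the peaks are named as replicate 1 of WT, yet their positions and folds are not those of the WT 1 file. With 2 lists against 2, a two-sided exact permutation p cannot be smaller than 0.33.

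A summit lay in or near 31 of the 32 proteasome genes in at least 1 list, while 21.7% of all protein-coding genes had none in any list. WT 1 had summits at 20 genes (62.5%, against 47.3% of all protein-coding genes), WT 2 at 28 (87.5%, against 70.9%) and GF 1 at 28 (87.5%, against 64%). GF 2 had them at 16 genes (50%, against 5.46%). The members' share stood above that of all genes in each list, by the widest ratio in GF 2. Proteasome genes are short, with a median of 1392 bp against 2006 bp for all genes. From the shares of genes in the same 10 length classes, the number of 32 genes with a summit would be 13.1 for WT 1, 21.1 for WT 2, 18.5 for GF 1 and 1.75 for GF 2.

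Across the lists, 10 of the 32 genes had a summit in all 4 (3.85% of all genes did): pas-1, pas-6, pbs-1, pbs-4, pbs-5, rpn-1, rpn-2, rpn-5, rpn-7 and rpn-11. A further 10 had one in the 3 long lists and not in GF 2 (37.6% of all genes), namely pas-4, pas-7, pbs-2, pbs-3, pbs-7, rpt-3, rpn-3, rpn-10, rpn-12 and rpn-13. Another 5 (pas-3, pas-5, rpt-1, rpn-8 and rpn-9) had one in WT 2, GF 1 and GF 2 but not in WT 1, a pattern of 0.866% of all genes. No member had summits in both lists of one genotype and neither list of the other, conditions met by 0.1% (GF only) and 2.72% (WT only) of all genes. The remaining members were rpt-6 (WT 2 and GF 1), pas-2 and rpt-4 (WT 2 alone), rpt-5 and rpn-6.1 (GF 1 alone), rpt-2 (GF 2 alone) and pbs-6 (no list).

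**Figure D1:**
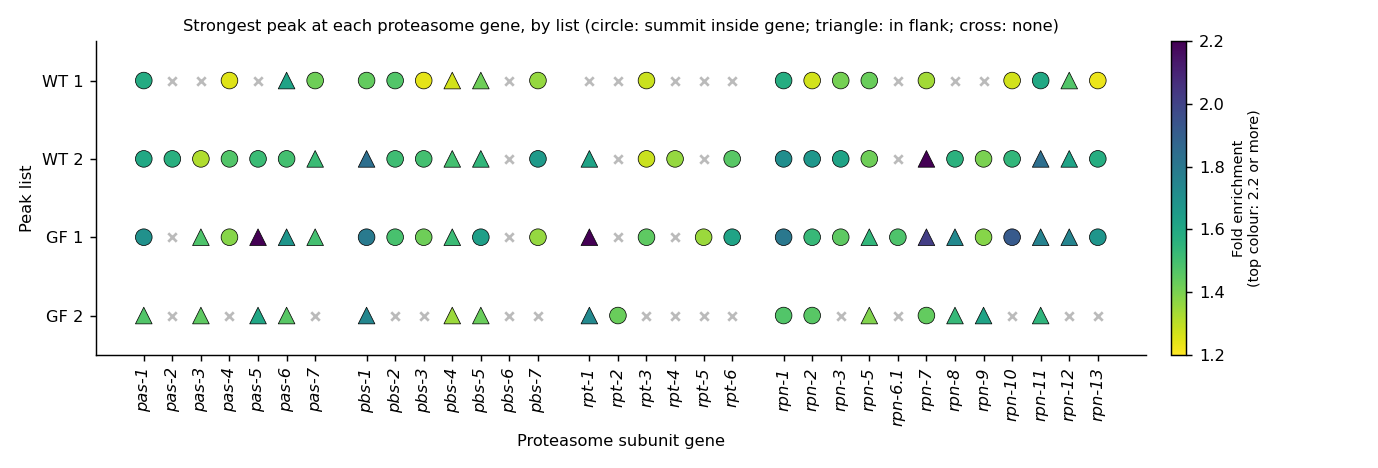
Strongest peak at each of the 32 proteasome genes (columns, grouped by subunit class) in each peak list (rows), with fold enrichment as colour, circles for summits inside the gene, triangles for summits in the 1000 bp flanks and crosses where no summit was listed. Apart from a few flank peaks such as those of pas-5 and rpt-1 in GF 1 (3.84 and 2.45) the folds are low, and GF 2 has mostly triangles.

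With the 1000 bp window, the class of ATPase genes had the lowest share of genes with a summit in each of the 4 lists. In WT 1 a summit was listed for 4 of 7 pas, 6 of 7 pbs, 1 of 6 rpt and 9 of 12 rpn genes. In WT 2 the numbers were 7, 6, 4 and 11 in the same order, in GF 1 they were 6, 6, 4 and 12, and in GF 2 they were 4, 3, 2 and 7. The share of rpt genes minus that of the other 26 members was -56.4 percentage points in WT 1, -25.6 (WT 2), -25.6 (GF 1) and -20.5 (GF 2), with a mean of -32.1 ± 16.4 percentage points (SD, n = 4 lists). This SD spans both genotypes and lists of unlike length, so it is not a spread among replicates. The rpt class has 6 genes, so 1 gene moves its share in a list by 16.7 percentage points. Beside the share of all genes, the rpt share was lower in WT 1 (16.7% against 47.3%) and WT 2 (66.7% against 70.9%) and higher in GF 1 (66.7% against 64%) and GF 2 (33.3% against 5.46%). The median gene length was 1053 bp for pas, 971 bp for pbs, 1784 bp for rpt and 1913 bp for rpn genes. Classes were compared by counts without a test, because genes are not replicates. Within the rpn genes, the 8 subunits of the lid, the part that holds the deubiquitinase, had 5 members with a summit in WT 1, 7 (WT 2), 8 (GF 1) and 5 (GF 2). The other 4 (rpn-1, rpn-2, rpn-10 and rpn-13) had 4, 4, 4 and 2 in the same order.

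**Figure D2:**
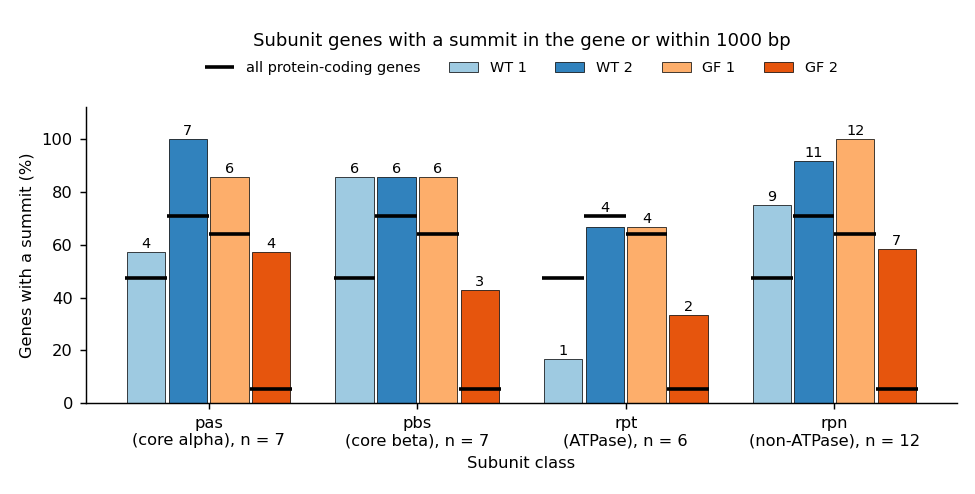
Share of genes with a summit in the gene or within 1000 bp (vertical axis, %) for each subunit class in the 4 lists, with the number of genes above each bar and a black line at the share of all 19971 protein-coding genes in that list. The rpt bars are the lowest in each list, and in GF 2 all classes stand above the line at 5.46%.

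Among the alpha subunit genes, pas-1 had the best summed rank by fold over the lists. Its strongest peak had a fold of 1.59 (WT 1), 1.60 (WT 2), 1.70 (GF 1) and 1.47 (GF 2). The lists did not mark the same place, however: in the 3 long lists that summit lay inside pas-1 (chromosome V, 14422001 to 14422576), and in GF 2 it lay in the flank nearer to dhs-22 (14421224 to 14421407), where WT 2 also had a weaker peak of 1.32. At pas-6 a single flank region (chromosome V, 5582934 to 5583210) was found in all 4 lists, with folds of 1.62 (WT 1), 1.47 (WT 2), 1.68 (GF 1) and 1.46 (GF 2), and summits within 64 bp of each other. No other gene had its window at that region, and the 4 folds differed little.

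The tallest proteasome peak in any list lay beside pas-5. In GF 1 it had a fold of 3.84 (chromosome I, 10565310 to 10565523, place 22 of 25007 peaks by fold), and GF 2 had a peak of 1.61 with its summit 3 bp away. Neither WT list had a peak there, and its nearest gene was ubc-25, which encodes a ubiquitin-conjugating enzyme family member, rather than pas-5. Inside pas-5 itself, the long lists WT 2 and GF 1 had weaker peaks of 1.52 and 1.32, and WT 1 had none. GF 2 had a second flank peak of 1.39 on the other side, nearest to the ribosomal stalk gene rplp-0. At pas-3, WT 2 reached 1.32 inside the gene, while GF 1 and GF 2 reached 1.48 and 1.45 in a flank shared with chp-1, and WT 1 had no summit. The members pas-4 and pas-7 had summits in the 3 long lists with folds between 1.25 and 1.52, and pas-2 had one only in WT 2 (1.57).

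In the beta class, pbs-1, a gene for a catalytic beta subunit, had the best summed rank. Its strongest peak had a fold of 1.44 (WT 1), 1.84 (WT 2), 1.79 (GF 1) and 1.74 (GF 2), where it stood at place 155 of 905. WT 1 was thus the lowest, and the other 3 lists were close together. The peaks of the 4 lists merged to chromosome IV, 1708474 to 1709329, but the summits spread over 576 bp: those of WT 1 and GF 1 lay inside pbs-1, and those of WT 2 and GF 2 in the flank beside pugs-4. GF 1 had a second peak of 1.57 in that flank, which brought its summit within 100 bp of those of WT 2 and GF 2.

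The gene pbs-5 encodes the beta subunit with chymotrypsin-like activity. A region inside it (chromosome I, 14719697 to 14720504) was present in all 4 lists with folds of 1.31 (WT 1), 1.44 (WT 2), 1.64 (GF 1) and 1.34 (GF 2). A flank region beside Y54E5A.8 was present in WT 1 (1.42), GF 1 (1.46) and GF 2 (1.43) and absent from WT 2. The strongest pbs-5 peak of WT 2 (1.54) lay in the other flank, nearest to K05C4.2. At pbs-4 the shared region lay in the flank nearest to mrrf-1, at folds of 1.27 (WT 1), 1.50 (WT 2), 1.52 (GF 1) and 1.35 (GF 2), among the weaker peaks of WT 1 and GF 2. The genes pbs-2 (1.47, 1.51 and 1.49 in WT 1, WT 2 and GF 1), pbs-3 and pbs-7 had summits inside the gene in the 3 long lists only, and pbs-6 had none within 1000 bp in any list. With flanks of 2000 bp, all 7 pbs genes, pbs-6 included, had a summit in each of the 3 long lists.

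The ATPase gene with the best summed rank was rpt-1, and its flank held the smallest spread of summits among the member regions found in 3 or 4 lists. The peak had a fold of 1.62 (WT 2), 2.45 (GF 1) and 1.73 (GF 2), and WT 1 had none. Its place by fold was 7001 of 29541 (WT 2), 386 of 25007 (GF 1) and 163 of 905 (GF 2), so it was high in both GF lists. The summits of WT 2 and GF 1 fell on the same base and that of GF 2 lay 2 bp away (chromosome V, region 11980080 to 11980516). Here rpt-1 was the nearest gene, with the splicing factor gene snr-4 also within 1000 bp.

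The other ATPase genes had weak or few peaks. At rpt-3, the gene used in reporters of the SKN-1A response, the folds were 1.28 in WT 1, 1.28 in WT 2 and 1.45 in GF 1, all inside the gene. GF 2 had no peak. The WT 2 and GF 1 peaks overlapped, with summits 54 bp apart, and the WT 1 peak lay elsewhere in the gene. The WT 2 peak stood at place 27689 of 29541, near the end of the list. The strongest peaks of rpt-6 had folds of 1.46 in WT 2 and 1.62 in GF 1, at different places in the gene. A weaker WT 2 peak of 1.40 had its summit 3 bp from that of GF 1. Single lists held rpt-4 (1.36, WT 2), rpt-5 (1.35, GF 1) and rpt-2 (1.43, GF 2), each with the summit inside the gene.

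Among the non-ATPase subunits, rpn-11, which encodes the deubiquitinase of the lid, had the best summed rank of all 32 members. Its flank region (chromosome II, 4042853 to 4043084) was present in all 4 lists with folds of 1.55 (WT 1), 1.84 (WT 2), 1.65 (GF 1) and 1.55 (GF 2), and summits within 40 bp of each other. The neighbour pqn-48 was the nearest gene to those summits. A second region inside rpn-11 was present in the 3 long lists (1.60, 1.74 and 1.50) and not in GF 2. A further region, in the other flank and nearest to K07D4.2 (chromosome II, 4045214 to 4045432), was present in WT 1 (1.54) and GF 1 (1.76). The strongest rpn-11 peak, whose rank entered the sum, was therefore inside the gene in WT 1, in the pqn-48 flank in WT 2 and GF 2, and in the K07D4.2 flank in GF 1.

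The lid gene rpn-7 had its strongest peaks in a flank nearest to F49C12.9 (chromosome IV, 9316107 to 9316361), at 2.20 in WT 2 and 2.02 in GF 1 with summits 7 bp apart. The WT 2 peak stood at place 461 of 29541. WT 1 and GF 2 had no peak there and had weaker ones inside the gene, of 1.34 and 1.44, at different places. At rpn-9 a flank region (chromosome II, 11237181 to 11237687) had summits within 12 bp in WT 2 (1.25), GF 1 (1.34) and GF 2 (1.62), with fndc-1 the nearest gene. It was near the end of the long lists by fold (place 28489 of 29541 in WT 2) and well up in GF 2 (place 261 of 905).

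At rpn-8, the partner of RPN-11 in the lid, a flank region nearest to R12E2.13 held summits within 47 bp in WT 2 (1.46), GF 1 (1.73) and GF 2 (1.53), and WT 1 had no peak. The lid gene rpn-5 had a merged region in all 4 lists (1.35, 1.34, 1.54 and 1.39 in WT 1, WT 2, GF 1 and GF 2), but only the summits of GF 1 and GF 2 lay within 100 bp of each other. The lid scaffold gene rpn-6.1, known in C. elegans for raising proteasome activity and lifespan when its level is increased, had a single peak, inside the gene in GF 1 (1.48).

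The large scaffold genes rpn-1 and rpn-2 had summits inside the gene in every list. At rpn-1 the strongest peaks of WT 1, WT 2 and GF 1 had folds of 1.58, 1.71 and 1.80 with summits within 15 bp (chromosome IV, 6906816 to 6907902), and the GF 2 peak of 1.47 lay elsewhere in the gene. At rpn-2 the strongest peaks had folds of 1.27, 1.67, 1.53 and 1.46 in WT 1, WT 2, GF 1 and GF 2. No 2 of these peaks overlapped, so the folds are not those of a single site. The GF 2 peak overlapped no rpn-2 peak of another list.

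The ubiquitin receptor gene rpn-10 had a peak inside the gene in the 3 long lists (1.27, 1.54 and 1.92), with summits within 17 bp. The gene rpn-13, also for a ubiquitin receptor, had a peak inside the gene in the same lists (1.23, 1.58 and 1.68). At rpn-12 the shared peak (1.47, 1.62 and 1.75 in WT 1, WT 2 and GF 1, summits within 13 bp) lay inside the neighbouring gene rad-23, which encodes a shuttle protein that carries ubiquitinated proteins to the proteasome, so the same summits count for both genes. The lid gene rpn-3 had peaks inside the gene in the 3 long lists (strongest 1.41, 1.62 and 1.45).

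**Figure D3:**
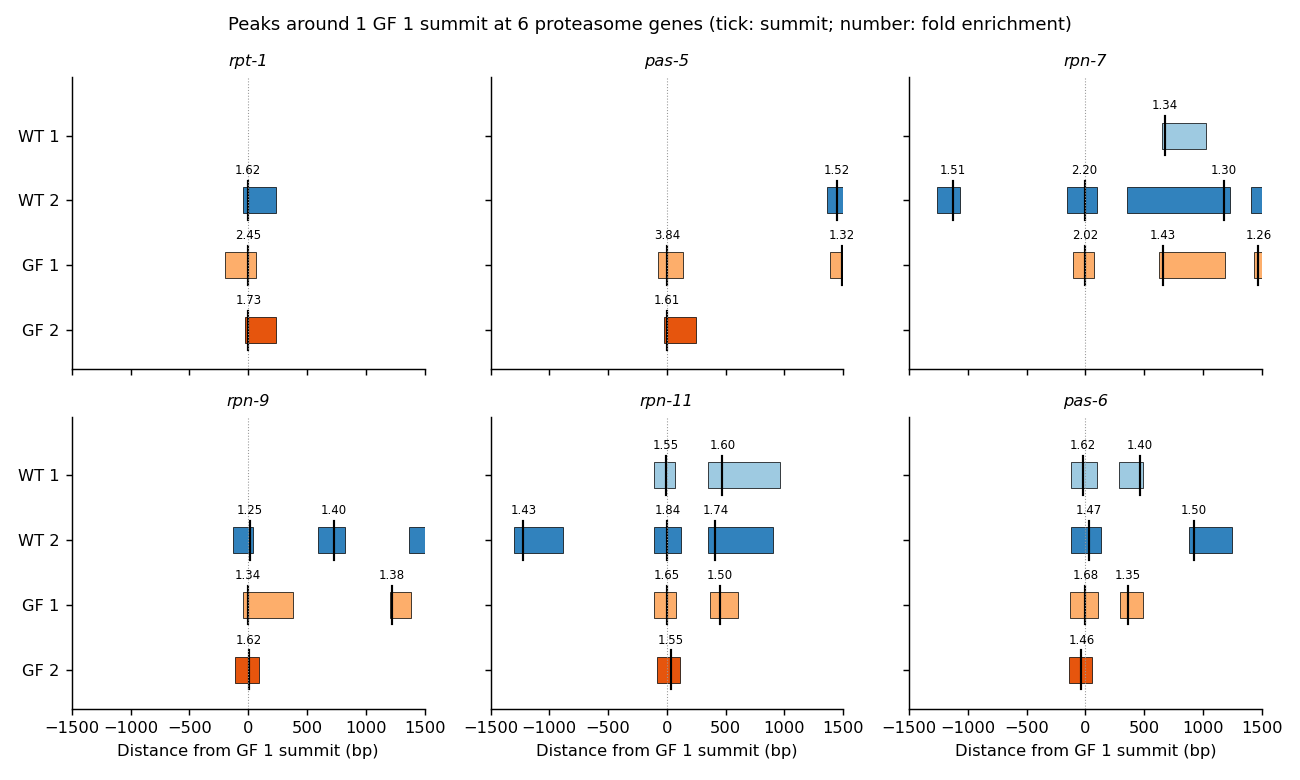
Peaks of the 4 lists (bars, with a tick at the summit and the fold above it) at 6 proteasome genes, drawn by distance in bp from the GF 1 summit of the flank region named in the text; peaks that cross the edge are clipped at 1500 bp. Summits lie within 2 bp in 3 lists at rpt-1 and within 40 bp in 4 lists at rpn-11, while pas-5 has the central peak only in GF 1 and GF 2.

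Peaks at proteasome genes were then sorted by position. Over all lists they formed 74 merged regions, of which 34 were in 1 list, 14 in 2, 20 in 3 and 6 in 4. Of the 26 regions in 3 or 4 lists, 9 lay in a flank, 15 inside the gene, and 2 had summits in both. GF 2 had a peak in 7 of the 9 flank regions and in 1 of the 15 inside a gene (77.8% and 6.67%). Over all genes, regions in 3 or 4 lists had a GF 2 peak in 10.2% of 3059 flank regions and 3.69% of 7933 regions inside a gene, so the flank share was the higher one there too. GF 2 itself counted towards the 3 or 4 lists, which raises all of these shares. The flank regions at pbs-5 (beside Y54E5A.8), rpt-1, rpn-8 and rpn-9 reached 3 lists only with GF 2. Among flank regions in all 3 long lists, those of pas-6, pbs-4 and rpn-11 had a GF 2 peak. Those of pas-7 and rpn-12 had none. The summits of the flank regions spread over a median of 47 bp (2 to 502 bp) and those inside the genes over 127 bp (15 to 1054 bp). These spreads overlap and carry no test. Flanks cannot be split into upstream and downstream, since the gene table has no strand.

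The strongest summit of a member lay inside the gene for 16 of 20 members in WT 1, 20 of 28 in WT 2, 17 of 28 in GF 1 and 4 of 16 in GF 2. These are shares of 80%, 71.4%, 60.7% and 25%. Over all genes with a summit the shares were 62.7%, 62.7%, 63.6% and 44%. GF 2 had the lowest share of the 4 lists, for members and for all genes. A summit in the flank of one gene can lie inside its neighbour, so these are not shares of summits outside genes. Moving every summit by 100 bp in either direction left 4 of 16 in GF 2 and gave 16 of 20, 21 or 22 of 28 and 17 or 20 of 28 in the other lists.

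Many of these summits were shared with a neighbour. In GF 2, 20 of the 21 summits at members also fell in the window of another protein-coding gene (95.2%, against 75.6% of all gene and summit pairs of that list). In WT 1, WT 2 and GF 1 the shares were 74.1%, 80.4% and 69.6%, against 39.3%, 41.7% and 40.4%. When each summit was given to its nearest gene alone, 18 members kept a summit in WT 1, 26 (WT 2), 25 (GF 1) and 9 (GF 2). For all genes the shares under that rule were 39.1%, 61%, 54.6% and 3.35%.

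The GF 2 peaks were set against the other lists by summit position. Of the 16 members with a GF 2 summit, 9 had one within 100 bp of a GF 1 summit, 8 of a WT 2 summit and 4 of a WT 1 summit. These shares of 56.2%, 50% and 25% compare with 47.1%, 40.2% and 33.8% of the 1091 genes with a GF 2 summit. The members' agreement was close to that of all genes in GF 2. At pas-6 and rpn-11 the GF 2 summit had a partner in each of the other 3 lists. At pbs-5 the partners were split between 2 GF 2 summits, 1 inside the gene (WT 1 and WT 2) and 1 in the flank (GF 1).

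List length bears on every count above. With only the 905 peaks of highest fold kept per list, 0 members had a summit in WT 1 (3.82% of all genes did), 1 in WT 2 (4.02%) and 2 in GF 1 (4.55%), while GF 2 had 16 (5.46%). The 1 member in WT 2 was rpn-7, and those in GF 1 were pas-5 and rpt-1. With the strongest 5000 peaks the long lists had 4 (WT 1), 4 (WT 2) and 7 (GF 1) of 32 members, or 12.5%, 12.5% and 21.9%, against 19.8%, 20.2% and 20.6% of all genes. At 5000 peaks the members' share was thus below that of all genes in both WT lists and near it in GF 1. From the shares of genes in the same length classes, the number would be 5.18 (WT 1), 5.36 (WT 2) and 5.41 (GF 1). Against these numbers the members' count was slightly lower in both WT lists and higher in GF 1. These differences were not tested.

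**Figure D4:**
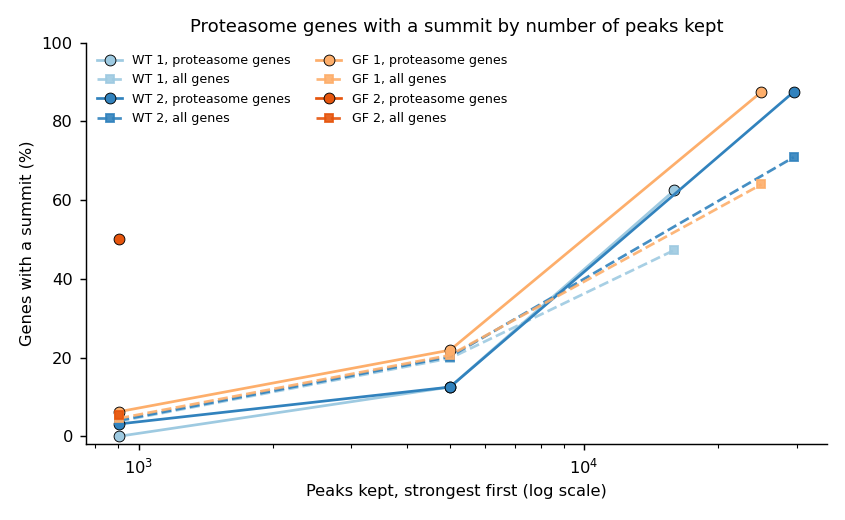
Share of the 32 proteasome genes (solid lines, circles) and of all 19971 protein-coding genes (dashed lines, squares) with a summit, by the number of strongest peaks kept (log scale): 905, 5000 where a list has as many, and the whole list. The GF 2 point for proteasome genes stands at 50% with 905 peaks, where the other lists lie between 0% and 6.25%.

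The members' peaks were then placed by fold within each list. The percentile of a member's strongest peak by fold within its list had a median of 35.8 (WT 1), 64.3 (WT 2), 55.8 (GF 1) and 38.2 (GF 2). Over all genes with a summit the medians were 60.7, 66.1, 64.7 and 58.3. The members' median was the lower one in all 4 lists, least so in WT 2. Above the middle of the list were 6 members in WT 1 (30% of those with a summit, against 61% of all genes with one), 14 in GF 1 (50% against 64.8%) and 6 in GF 2 (37.5% against 57.8%). WT 2 went the other way by this count, with 21 members (75% against 65.9%). Members also had fewer summits each than all genes in the long lists (1.35 against 1.79 in WT 1, 2 against 2.28 in WT 2 and 1.64 against 2.12 in GF 1), and the part of this in the lower percentiles was not tested. In GF 2 they had 1.31 against 1.22.

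**Figure D5:**
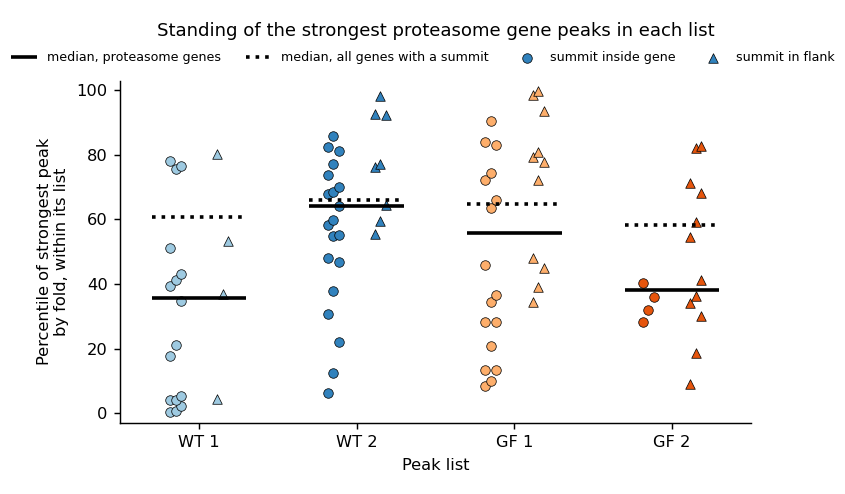
Percentile by fold, within its list, of the strongest peak of each proteasome gene that had a summit (circles inside the gene, triangles in a flank), with the median of these genes as a solid line and that of all genes with a summit as a dotted line. The solid line is below the dotted line in each list, at 35.8, 64.3, 55.8 and 38.2 in WT 1, WT 2, GF 1 and GF 2.

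The genotypes could not be separated by these measures. With all peaks, a mean of 24 ± 5.66 members had a summit in the WT lists and 22 ± 8.49 in the GF lists (SD, n = 2 each), a difference of -2 that every split of the lists reached in size (two-sided exact permutation p = 1). With 905 peaks each, the means were 0.5 ± 0.707 and 9 ± 9.9 members, a difference of 8.5 (two-sided exact permutation p = 0.333, the smallest this design allows). Most of that difference rested on GF 2, and without it the difference was 1.5 members. The median percentile of the members' peaks was 50.04 ± 20.1 in WT and 47.0 ± 12.4 in GF (n = 2 each, two-sided exact permutation p = 1). With all peaks and in percentile, lists of the same genotype differed by more than the genotype means did. At equal length this held for the GF lists (2 and 16 members) and not for the WT lists (0 and 1).

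Other genes of the ubiquitin and proteasome pathway were scored in the same way. Of 28 genes for ubiquitin, its conjugation and removal, proteasome accessory proteins and SKN-1 regulation, WT 1 had a summit at 18, WT 2 at 25, GF 1 at 21 and GF 2 at 7 (64.3%, 89.3%, 75% and 25%). The shares of all genes, as above, were 47.3%, 70.9%, 64% and 5.46%. From the shares of genes in the same length classes, 14.5 of the 28 would have a summit in WT 1. The numbers were 21.04 for WT 2, 19.3 for GF 1 and 1.56 for GF 2, so in GF 1 the 21 found stood close to it. A summit in all 4 lists was found at 5 (3.85% of all genes), among them both ubiquitin genes. The polyubiquitin gene ubq-1 had folds of 2.01 (WT 1), 2.24 (WT 2), 2.12 (GF 1) and 1.90 (GF 2). The gene ubq-2, for ubiquitin fused to a ribosomal protein, had 1.89, 1.79, 2.44 and 1.79 in the same order. These folds were above the median fold of each list. The ubq-1 value exceeded that of each proteasome gene in WT 1, WT 2 and GF 2, and in GF 1 those of all but pas-5 and rpt-1.

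The remaining members of that group of 5 were cdc-48.1, ubh-4 and png-1. The unfoldase gene cdc-48.1, known for handing ubiquitinated proteins to the proteasome, had folds of 1.41 (WT 1), 1.87 (WT 2), 1.86 (GF 1) and 1.69 (GF 2). The gene ubh-4, for a deubiquitinase of the proteasome, had 1.57, 1.79, 1.54 and 1.32. The gene png-1, for the peptide N-glycanase that processes SKN-1A, had 1.48, 1.41, 1.53 and 1.40. The WT 1 and GF 2 peaks overlapped, with summits 161 bp apart, the GF 1 peak lay elsewhere in the gene and the WT 2 peak in a flank. The protease gene ddi-1, which also acts on SKN-1A, and npl-4.1 and npl-4.2, for cofactors of CDC-48, had no summit in any list. The gene for SKN-1 itself had summits in the 3 long lists and none in GF 2, and wdr-23, for the adaptor that promotes SKN-1 degradation, had them in WT 2, GF 1 and GF 2.

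As a point of comparison, 70 of 78 genes named rpl or rps, which encode cytosolic ribosomal proteins, had a summit in GF 2 (89.7%), against 16 of 32 proteasome genes. At 905 peaks each the ribosomal protein genes with a summit were 14 (WT 1), 8 (WT 2), 30 (GF 1) and 70 (GF 2), and the proteasome genes 0, 1, 2 and 16. Both groups had their highest number in GF 2, and the difference between them was not tested.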

How the data were processed

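Peak lists of 4 precipitated samples of whole C. elegans were used, grouped by title and genotype. The authors deposited 1 narrowPeak list per sample, so peaks were called per sample. The submitters' processing notes name Trim Galore (0.6.4), BWA (0.7.17), SAMtools (1.10) and MACS2 (2.2.7.1), with ce10 as the genome build. Settings, and the control used for peak calling, are not given in the sources used here. For every peak the authors deposited its fold enrichment (a ratio to the background estimated by the caller), its -log10 p, its -log10 q (1.3 or more) and a score close to 10 times the -log10 q. The lists hold no read counts, so depth is unknown and no interval on a fold can be given.

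Gene positions came from a RefSeq table (assembly WBcel235). Its build differs from that of the lists, and it has no strand. It was used only for names and neighbourhood, no position from it is given, and exons were not assigned. Counts were repeated with summits moved by 100 bp. A summit counted for a gene when it lay in the gene or within 1000 bp. Merged regions joined overlapping peaks of the lists at 1 gene. Genotypes were compared by exact permutation over the lists. The window search was tested on simulated peaks. No sequence was used here, and the planned search for SKN-1 motif letters was not run. Python 3.11.15, NumPy 2.4.6, pandas 2.3.3 and matplotlib 3.10.9 were used.

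The members and the list of other pathway genes were chosen with earlier results of these data known. Values are given for members with a summit in all lists, in both lists of one genotype only, or in 1 list or none, and for the member of each class whose fold ranks over the lists had the lowest sum (a missing peak ranked after the last). The other genes with values, the split of the rpn genes and the contrast of rpt genes with the rest were chosen after their values were seen. Alternatives were other windows, the nearest gene, overlap of the whole peak, a stricter q, shorter lists and leaving out each list.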

Additional observations from a re-analysis of the deposited data

How the results depend on the processing

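The count of 10 genes in all 4 lists became 13 with flanks of 2000 bp and 4 with summits inside genes only. It was 5 at gene ends (1000 bp outside to 200 bp inside), 5 with the nearest gene and 1 at a -log10 q of at least 5. It ranged from 10 to 20 when a list was left out (20 without GF 2). The counts per list moved by over 1.5 times in GF 2 with summits inside genes (7 members, against 2.65% of all genes). They also did so there with the nearest gene (9, against 3.35%) and the stricter q (6, against 3.12%). At gene ends they moved in WT 1, WT 2 and GF 1 (9, 18 and 17, against 26.4%, 45.9% and 39%). At the stricter q they moved in WT 1 and GF 1 (6 and 18, against 27.9% and 45.7%). With the strongest 5000 peaks they moved in WT 1, WT 2 and GF 1 (4, 4 and 7, against 19.8%, 20.2% and 20.6%). In WT 1 the members' share was thus below that of all genes at the stricter q (6 of 32) and close to it at gene ends (9 of 32). The genotype difference of -2 members turned to 2.5 at gene ends and 3 with the strongest 5000 peaks (GF 1 alone for GF), and ranged from -8 to 4 when a list was left out. At equal length the difference of 8.5 kept its sign in every alternative run, but was 3.5 with summits inside genes only, 3.5 at the stricter q and 5 with the nearest gene. It ranged from 1.5 to 15.5 without a list. At the stricter q the lists were cut to 500 peaks each rather than 905. The difference in median percentile, -3.05, turned to 0.579 at the stricter q and 5.63 with the strongest 5000 peaks, and ranged from -17.3 to 11.2 without a list. The mean rpt contrast over the lists was negative in every alternative run and was -12.4 percentage points with the strongest 5000 peaks. In single lists the rpt class was not always the lowest. With flanks of 2000 bp, WT 2 had summits at 6 of 6 rpt, 7 of 7 pas, 7 of 7 pbs and 11 of 12 rpn genes. By the nearest gene, GF 2 had 2 rpt, 1 pas, 2 pbs and 4 rpn genes. With summits inside genes only, GF 2 had 1 rpt and 0 pas genes. The contrast was chosen after its values were seen, so its steady sign is no independent evidence. Of 156 counts of a single class in a list, 37 moved by over 1.5 times. The cause of these changes was not tested. With the replicate number as a block the differences were -2, 8.5 and -3.05 (exact sign-change p = 1, 0.5 and 1). With 2 blocks this p cannot be smaller than 0.5, so the blocked test could not have changed a call. The labels do not state that WT and GF replicates of the same number were paired. Both window rules that drop flanks or inner parts change which peaks count by construction. The unknown depth, and list lengths that differ between samples, limit every count.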
